A study of Mus musculus with 8 samples.

Results

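The genes described here encode linker histones and histone variants in the mouse cerebellum. They are the 10 symbols H1f0, Hist1h1c, H2afz, H2afv, H2afx, H2afy, H2afy2, H3f3a, H3f3b and Hist3h2ba, found by symbol among the 11763 loci listed in at least 1 of 4 deposited tables, and all 10 were found. Polyadenylated RNA was sequenced from sedentary and running controls and from sedentary and running Snf2h cKO-Nestin mice, all of them C57Bl/6 males of postnatal day 40. These 4 groups have 2 libraries each, every library is a pool of 3 cerebella, and the series' design text calls the libraries biological replicates. The titles of a group's libraries differ by a lane letter alone, so the spread behind the authors' p-values and q-values may be technical. The alleles carried by the controls are not given in the sources used here. The conditional knockout (cKO) removes Snf2h, the ATPase encoded by Smarca5, from cells in which the Nestin driver acts, so cells of other origin in the same tissue keep the gene.

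Nuclear DNA is wound on octamers of the core histones H2A, H2B, H3 and H4, and a linker histone (H1) binds where the DNA enters and leaves the particle. Snf2h belongs to the ISWI remodelers, which slide and space nucleosomes, and in Drosophila loss of ISWI lowers the amount of H1 on chromosomes. Replication-dependent histone genes supply dividing cells, whereas variants such as H2A.Z, macroH2A and H3.3 are made throughout the cell cycle and are the main histone supply of neurons that no longer divide.

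The members fall into 2 classes by the end of their mRNA, which matters because the libraries were made from polyadenylated RNA. Replication-dependent histone mRNAs usually end just after a stem loop and carry no poly(A) tail, although some of these genes also make a longer polyadenylated form. The consensus of the replication-dependent histone stem loop, searched on the transcript strand, was present in annotated coding transcripts of 3 of the 10 members, against 0.206% of all genes with a coding transcript (45 of 21877 in GENCODE M21, of which 42 have symbols starting with Hist). The 3 sites are shown because they are the feature that tells these members from the rest, with the stem loop in capitals and 5 bases on each side.
Hist1h1c: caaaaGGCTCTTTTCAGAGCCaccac
H2afx: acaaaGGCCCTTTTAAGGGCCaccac
Hist3h2ba: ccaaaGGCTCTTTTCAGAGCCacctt
The annotated transcript runs on for 840 bases after the stem loop in Hist1h1c, 822 in H2afx and 169 in Hist3h2ba, so each has an annotated form longer than the stem loop end. The other 7 members had no match to these letters. In their longest coding transcripts, H1f0, Hist1h1c, H2afx and Hist3h2ba have no intron.

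All positions are on GRCm38, the mm10 build named in the submitters' processing notes. H1f0 lies on chr15:79028450-79030504 (plus strand) and Hist1h1c on chr13:23738808-23740367 (plus). H2afz lies on chr3:137864487-137866922 (plus), H2afv on chr11:6427229-6444443 (minus) and H2afx on chr9:44334694-44336077 (plus). H2afy lies on chr13:56073619-56136361 (minus) and H2afy2 on chr10:61738665-61784147 (minus). H3f3a lies on chr1:180800832-180813943 (minus), H3f3b on chr11:116021912-116027962 (minus) and Hist3h2ba on chr11:58948920-58949533 (plus). All are annotated as protein-coding. The authors' locus that holds H1f0 also carries the symbols Gcat and Galr3, and Gcat starts 369 bases past the end of H1f0. Its values are those of the joined locus, here called the H1f0 locus, and the parts of the 3 genes cannot be told apart.

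Levels are the authors' FPKM (fragment counts scaled for transcript length and library size, so that genes can be compared), of which there is 1 for each group, so no spread between libraries can be shown. Library depth is unknown. Calls use the authors' q-value with a threshold of 0.05. Of the genes listed, 9725 of 9971 were called in the sedentary genotype table, 8051 of 8105 in that of runners, and all in the tables on running, so absence from a table says nothing about change. The targeted gene Smarca5 had 12.6 FPKM (sedentary) and 13.0 (running) in controls, against 4.94 and 5.38 in the cKO in the authors' deposited table, so it was lower in both cKO groups. The cerebellar markers Gabra6 (granule neurons) and Pcp2 (Purkinje cells) were present in every group, at 74.4 to 423 FPKM and 262 to 588 FPKM in the authors' deposited tables. Granule neuron markers moved with the genotype: all 13 loci of the list of 12 markers were called lower in the cKO in both genotype comparisons. With running in the control, where 5 histone genes were called lower, 7 of these loci were called higher and 2 lower. Their summed FPKM was 2092, 2147, 509 and 789 in sedentary controls, running controls, sedentary cKO and running cKO mice, with no marker at 0. In the same groups, summed Purkinje cell markers went the other way, from 1987 and 1989 in the controls to 4018 in cKO sedentary and 2868 in cKO runner, with no marker at 0 and 11 of 11 loci called higher in sedentary mice and 9 of 10 in runners. Choroid plexus markers summed to 87.2 in control sedentary against 541 to 677 FPKM in the other groups (4 loci), and serotonergic, dopaminergic and other hindbrain and midbrain markers to 5.42 and 13.0 in the controls against 60.0 and 74.1 in the cKO (8 loci). Microglial markers were called higher in the cKO at 6 of 6 loci in sedentary mice and 6 of 7 in runners. Oligodendrocyte markers were higher at 9 of 11 loci in both, with sums of 4409 and 4125 FPKM in sedentary and running controls against 4865 and 4353 in the cKO. Astrocyte and Bergmann glia markers were higher at 6 of 8 loci and lower at 2 in both. Of all genes, 44.3% were called higher and 51.0% lower in the sedentary cKO, and 44.5% and 50.0% in the running cKO. With running in the control these shares were 29.5% and 24.6%. The part of cell composition in the histone values was not tested, and in whole tissue fewer cells of a type and less RNA per cell cannot be told apart.

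In the cKO, 9 of the 10 genes were lower and 1, the linker histone gene Hist1h1c, was higher than in control in sedentary mice. H2afy fell by 15.7% and Hist3h2ba fell by 57.7%, and the other decreases lay between these. Called lower in this comparison were 51.0% of the 10200 genes with a value in both groups, and called higher 44.3% (95.3% in either direction). The median log2 ratio was -0.61 over the members and -0.15 over all these genes. Relative to that all-gene median, the member values lay between -1.09 (Hist3h2ba) and 0.67 (Hist1h1c), with -0.09 for H2afy, within its SE of 0.11. In runners, 7 of the 10 had a value in both groups, and 6 were called lower and 1 (Hist1h1c) higher, against 50.0% and 44.5% of 8523 genes (94.5% in either direction). The median log2 ratio there was -0.55 over these 7 members and -0.08 over all genes. These 6 genes were called lower in both genotype comparisons, as were 45.3% of the 7303 genes with a value in all groups. H2afv, H2afx and H2afy were listed only in the sedentary table, so their levels in runners are unknown. Without the joined H1f0 locus, 8 members were called lower in sedentary mice and 5 in runners.

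**Figure D1:**
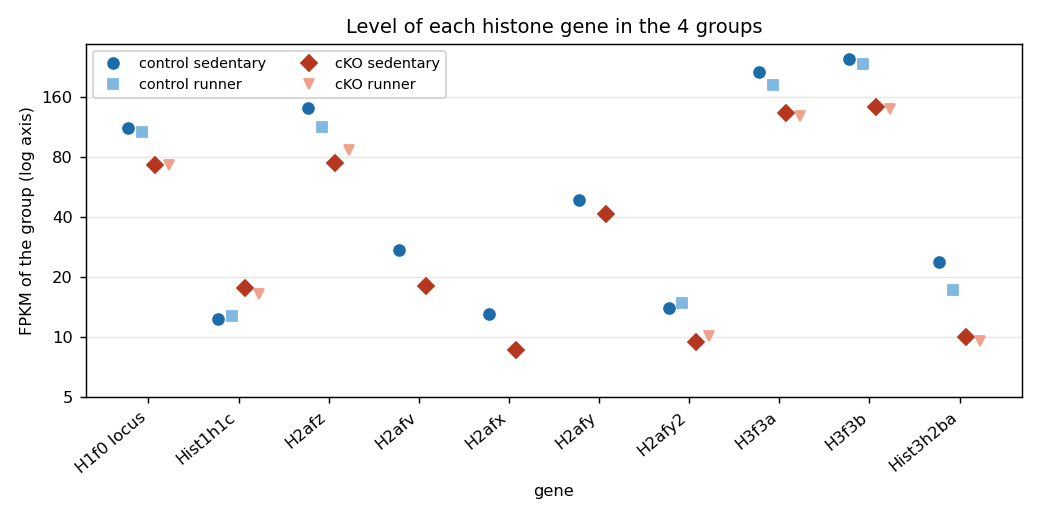
FPKM of each gene (log axis) in the sedentary and running controls (blue) and the sedentary and running cKO (red), 1 authors' value per group with no error available. Both controls lie above both cKO groups for the H1f0 locus, H2afz, H2afy2, H3f3a, H3f3b and Hist3h2ba, and below them for Hist1h1c.

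H1f0 encodes H1.0, the linker histone that accumulates in non-dividing, differentiated cells. The H1f0 locus had 111 and 107 FPKM in sedentary and running controls and 72.5 and 72.6 in sedentary and running cKO mice in the authors' deposited tables. Both cKO levels lay below both control levels and were close to each other. The authors' deposited table gave a log2 fold change of -0.62 (SE 0.035, taken here from the deposited statistic; q = 0.000167) for cKO over control in sedentary mice and -0.56 (SE 0.034, q = 0.000167) in runners. Hist1h1c encodes H1.2, a linker histone of the replication-dependent cluster that is also expressed in non-dividing cells. The authors' deposited tables gave Hist1h1c 12.3 FPKM (sedentary) and 12.7 (running) in controls, against 17.6 and 16.4 in the cKO. Its cKO levels were the higher ones, with a log2 fold change of 0.51 (SE 0.17, q = 0.000324) in sedentary mice and 0.37 (SE 0.17, q = 0.00727) in runners in the authors' deposited table. The FPKM ratio of the H1f0 locus to Hist1h1c was 9.02, 8.42, 4.12 and 4.43 in sedentary controls, running controls, sedentary cKO and running cKO mice. With the cKO the sum of both fell by 27.1% in sedentary mice and fell by 25.6% in runners, given as descriptions with no test. The H1f0 locus is joined with Gcat and Galr3, and Hist1h1c values cover its polyadenylated mRNA alone. The ratio and sum are therefore not those of all H1.0 and H1.2 mRNA.

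Among the H2A variants, H2afz encodes H2A.Z.1, a variant found at promoters and enhancers, and H2afv encodes the closely related H2A.Z.2. H2afz had 139.9 and 113 FPKM in sedentary and running controls and 74.8 and 86.7 in sedentary and running cKO mice in the authors' deposited tables. Each of its 4 levels was called different from its neighbour in that order of size: control sedentary above control runner, above cKO runner, above cKO sedentary. The authors' deposited table gave log2 -0.90 (SE 0.065, q = 0.000167) for cKO over control in sedentary mice and -0.38 (SE 0.082, q = 0.000167) in runners. H2afv had 27.2 FPKM in control sedentary and 18.0 in cKO sedentary in the authors' deposited table (log2 -0.60, SE 0.13, q = 0.000167). Transcripts of H2afz made up 83.7% of summed H2A.Z FPKM in control sedentary and 80.6% in cKO sedentary, and the sum fell by 44.5%.

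H2afx encodes H2A.X, the variant phosphorylated next to DNA breaks. It had 13.0 FPKM in control sedentary and 8.62 in cKO sedentary in the authors' deposited table (log2 -0.60, SE 0.18, q = 0.000765). The macroH2A genes H2afy and H2afy2 encode variants with a large non-histone domain that are associated with silent chromatin. H2afy had 48.9 FPKM in control sedentary and 41.2 in cKO sedentary in the authors' deposited table, and its log2 fold change of -0.25 (SE 0.11, q = 0.00224) was the smallest among the members in sedentary mice. H2afy2 had 14.0 FPKM (sedentary) and 14.8 (running) in controls, against 9.51 and 10.1 in the cKO in the authors' deposited tables. The groups separated by genotype, with log2 -0.56 (SE 0.20, q = 0.000167) in sedentary mice and -0.55 (SE 0.18, q = 0.000167) in runners in the authors' deposited table. H2afy2 therefore fell by 32.3% in sedentary mice, where H2afy fell by 15.7%, and the difference between these genes was not tested.

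H3f3a and H3f3b encode the same H3.3 protein, which is deposited outside DNA replication, and had the highest FPKM among the members with a value in each group. H3f3b had 249, 233, 142 and 139 FPKM in sedentary controls, running controls, sedentary cKO and running cKO mice in the authors' deposited tables. H3f3a had 213 and 184 FPKM in sedentary and running controls and 132 and 128 in sedentary and running cKO mice in the authors' deposited tables. For both genes the control levels lay above the cKO levels, and neither was listed for the comparison of the cKO groups with each other. The authors' deposited table gave log2 -0.81 (SE 0.027) for H3f3b and -0.68 (SE 0.040) for H3f3a in sedentary mice, and -0.75 (SE 0.027) and -0.53 (SE 0.043) in runners, all at q = 0.000167. Their summed level was 461 FPKM (sedentary) and 418 (running) in controls, against 274 and 266 in the cKO, so that with the cKO it fell by 40.6% in sedentary mice and fell by 36.2% in runners. H3f3a supplied 46.1%, 44.1%, 48.3% and 48.0% of the sum in sedentary controls, running controls, sedentary cKO and running cKO mice. In control sedentary, 1.42% of genes with a value were listed at or above the level of H3f3b, and 1.97% at or above that of H3f3a.

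Hist3h2ba encodes an H2B histone and had the largest decrease among the members. It had 23.8 and 17.3 FPKM in sedentary and running controls and 10.1 and 9.62 in sedentary and running cKO mice in the authors' deposited tables. Both cKO levels lay well below both control levels. The log2 fold change was -1.24 (SE 0.15, q = 0.000167) in sedentary mice and -0.85 (SE 0.16, q = 0.000167) in runners in the authors' deposited table. Of the genes with a value in both groups, 3.36% had a ratio as low or lower in sedentary mice and 5.63% in runners. For H3f3b these shares were 9.41% and 7.15%, and for H2afz 7.33% and 24.0%.

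Some members have near-identical copies elsewhere in the genome, and how reads shared between copies were assigned is not stated. At 95% identity or more over at least 200 bases, the longest coding transcript of H3f3a matched transcripts of 17 other genes, of which 16 are annotated as pseudogenes. H2afz matched 4 other genes, H3f3b and H2afy2 2 each, and H2afx and Hist3h2ba 1 each. H1f0, Hist1h1c, H2afv and H2afy had no such match. The search covered both strands, so the matches include Gm17275 for H3f3a and Aifm2 for H2afy2. Exons of these genes overlap those of the member, so they need not be copies elsewhere. H3f3a and H2afz thus had the most genes that could share reads. Exons on the other strand overlap those of H1f0 (Gm49544), H2afx (Gm44335), H2afy (Gm47071), H2afy2 (Aifm2) and H3f3a (H3f3aos and Gm17275), and reads of such partners cannot be told apart, since whether counting used strand is not stated.

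**Figure D2:**
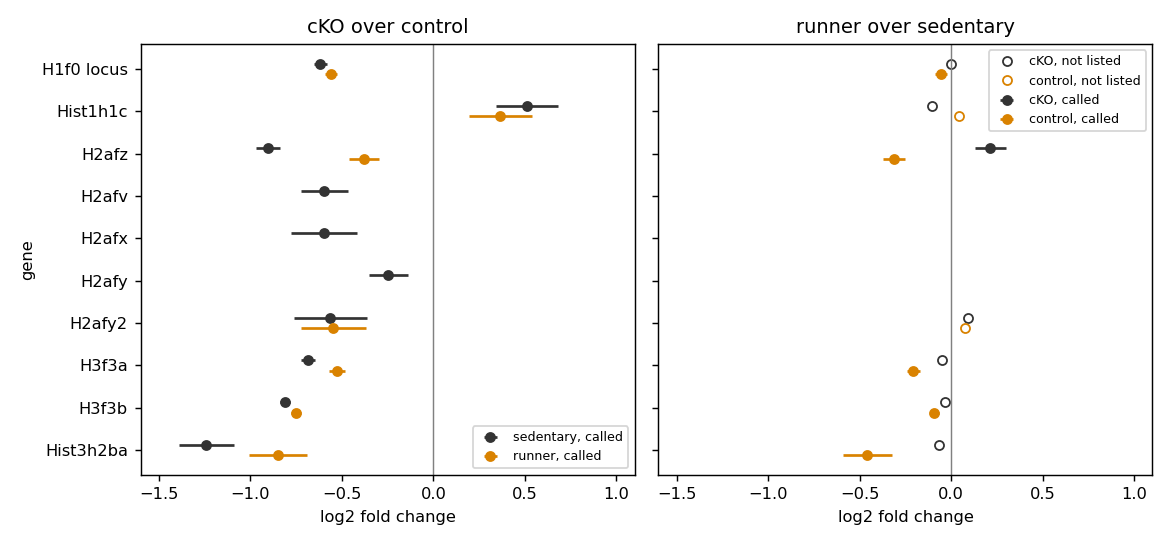
Log2 fold change of each gene for cKO over control (left) and runner over sedentary (right), with bars of 1 SE taken from the deposited statistic; open points are FPKM ratios of genes that the table does not list. The genotype values lie between -1.24 and 0.51, and Hist1h1c is the only gene above 0 on the left; among the values called on the right, that of H2afz in the cKO is above 0.

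In control mice 5 of the 7 genes with values were called lower in runners and none higher, where 24.6% of 8820 genes were called lower and 29.5% higher (54.1% in either direction). The 5 were Hist3h2ba (log2 -0.46, SE 0.14, q = 0.00237), H2afz (-0.31, SE 0.062, q = 0.000167), H3f3a (-0.21, SE 0.037, q = 0.000167), H3f3b (-0.092, SE 0.024, q = 0.000167) and the H1f0 locus (-0.057, SE 0.031, q = 0.0151) in the authors' deposited table. Hist1h1c and H2afy2 were not listed, with FPKM in runners 2.99% and 5.44% above that in sedentary controls. In the cKO, H2afz was called higher in runners (log2 0.21, SE 0.084, q = 0.0122 in the authors' deposited table), and the other 6 genes were not listed, so no p is known for them. All 13 granule neuron marker loci were also called higher with running in the cKO, and their part in the H2afz value was not tested. Of the 7964 genes with values in both cKO groups, 26.2% were called higher and 20.4% lower (46.6% in either direction). The FPKM of those 6 genes differed between cKO runners and cKO sedentary mice by between -6.95% (Hist1h1c) and 6.63% (H2afy2).

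The genotype effect on H2afz was smaller in runners than in sedentary mice. The cKO level of H2afz was 53.5% of control in sedentary mice and 77.0% in runners, a difference of 0.53 log2 (SE 0.10) with an adjusted p of 4.18e-06 in a two-sided z test built on the authors' deposited fold changes and statistics and adjusted over all 6751 genes listed in both genotype tables. For H3f3a the corresponding values were 62.2% and 69.4%, a difference of 0.16 log2 (SE 0.058, adjusted p = 0.0267 in the same z test on the authors' values). These 2 of the 7 members listed in both tables passed, where 28.0% of all genes did. Hist3h2ba stood at 42.3% of control in sedentary mice and 55.5% in runners, but this difference of 0.39 log2 did not pass (95% interval -0.039 to 0.82, adjusted p = 0.201 in the z test on the authors' values). The intervals of the other differences were -0.038 to 0.15 for the H1f0 locus, -0.015 to 0.13 for H3f3b, -0.51 to 0.54 for H2afy2 and -0.62 to 0.33 for Hist1h1c. Neither the H2afz nor the H3f3a difference passed once fold changes were centred on genes of like transcript length, as described next.

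Transcript length moved with these comparisons. Called genes with a longest annotated transcript under 1 kb were higher in 21.3% of cases for cKO over control in sedentary mice and in 4.55% for running in the control, against 53.8% and 71.8% of those over 3 kb. For genes of 1 to 3 kb, which include every member but Hist3h2ba (614 bases) and H2afy (4018 bases), these shares were 32.3% and 21%. In the genotype comparison of runners the shares were 45.8% under 1 kb, 48.6% at 1 to 3 kb and 46.2% over 3 kb. For running in the cKO they were 63.2%, 70.4% and 52.4%. After subtraction of the median of genes of like length, all members with a value kept the direction of their genotype effect at the lengths used, although some lay close to the median. Length counts transcripts of any type, and the longest coding transcript of H2afy has 2046 bases instead of 4018. The median subtracted for H2afy in sedentary mice was -0.13, against -0.36 for H2afy2 (2175 bases). The uncentred -0.25 of H2afy lies between these, so its centred direction depends on the length used. In sedentary mice the centred log2 values were -0.73 for Hist3h2ba, -0.56 for H3f3b, -0.43 for H3f3a, -0.39 for H2afz, -0.32 for the H1f0 locus, -0.24 for H2afv, -0.20 for H2afy2, -0.15 for H2afx, -0.12 for H2afy and 0.96 for Hist1h1c. The centred value of H2afx was within its SE of 0.18, and those of H2afy2 and H2afy were about equal to theirs (0.20 and 0.11). In runners they were -0.90 for H3f3b, -0.69 for Hist3h2ba, -0.59 for the H1f0 locus, -0.58 for H2afy2, -0.41 for H3f3a, -0.22 for H2afz and 0.43 for Hist1h1c. For running in the control, centring left 0.019 for H2afz, 0.015 for the H1f0 locus, -0.019 for H3f3b, -0.14 for H3f3a and -0.13 for Hist3h2ba, so that of these 5 genes H3f3a alone lay more than its SE from the median of like-sized transcripts. For running in the cKO, centring left 0.11 for H2afz, against 0.21 before it. The centred genotype by running difference was 0.18 for H2afz (adjusted p = 0.217) and 0.020 for H3f3a (adjusted p = 0.865), in the z test on the authors' values. For the H1f0 locus and H3f3b it turned to -0.27 and -0.35 (adjusted p = 3.19e-07 and 1.57e-18 in the z test on the authors' values), meaning a larger centred decrease in runners. After centring, 2 of the 7 members passed, against 30.0% of 6266 genes. In runners the medians subtracted varied between neighbouring length bins, at 0.030, 0.15 and -0.11 for the bins holding the H1f0 locus, H3f3b and H3f3a.

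**Figure D3:**
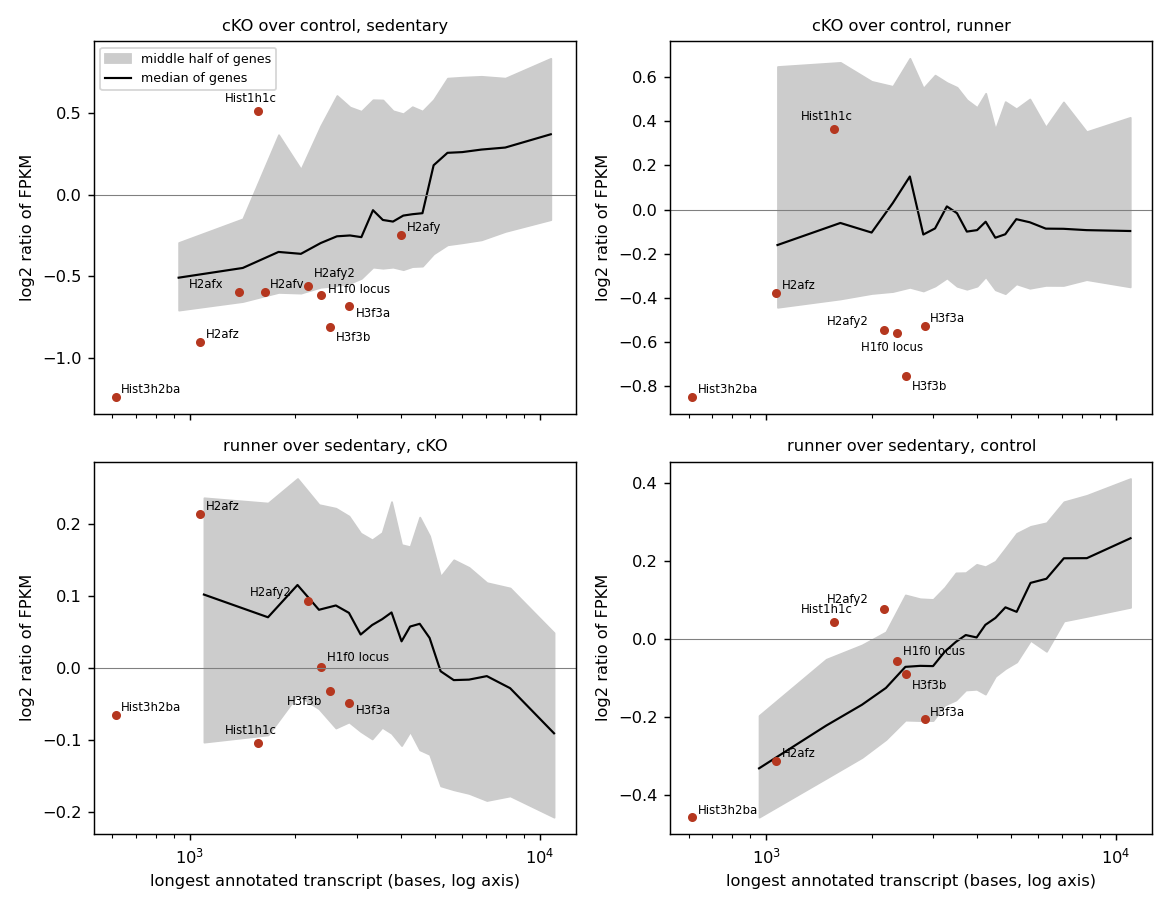
Log2 ratio of FPKM against the longest annotated transcript (bases, log axis) for the 4 comparisons; the line is the median and the band the middle 50% of genes in 20 length bins, and the points are the histone genes. In the upper left panel all the genes but Hist1h1c lie below the line or, for Hist3h2ba, left of its first bin and lower still, and in the lower right panel H2afz lies on it.

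**Figure D4:**
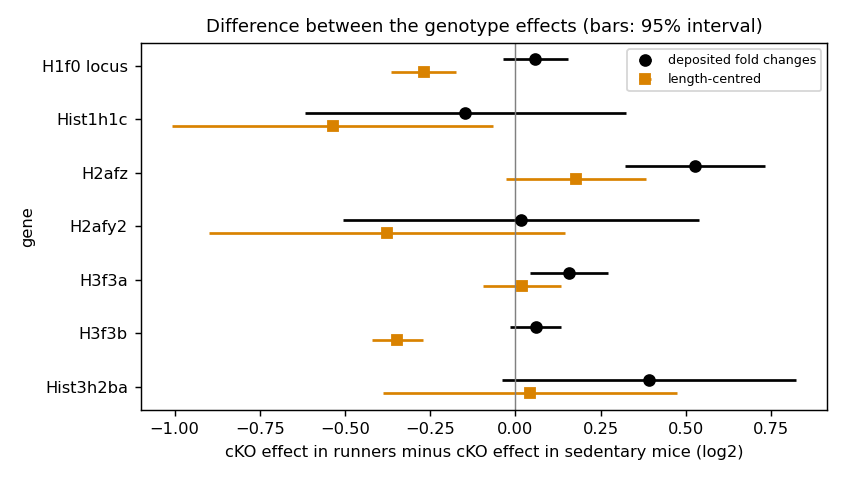
Difference of the cKO effects, runners minus sedentary mice (log2), for the 7 genes listed in both genotype tables, with 95% intervals, from the deposited fold changes (circles) and after length-centring (squares). The uncentred value of H2afz is 0.53 and its centred value 0.18, whose interval includes 0. Intervals of centred values use the SE from before centring.

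The promoters of 3 members that fell with the cKO and held several CCAAT boxes, a motif common in histone promoters, are shown next to that of Hist1h1c, which rose. These were picked by both motif and direction. H1f0, H2afy and H2afy2, which also fell in sedentary mice, held no CCAAT and are not shown. RefSeq (GRCm38.p6) gave a promoter window for 9 members, all but H2afx, and the 250 bases before the annotated start were searched on both strands. The motifs were CCAAT and a TATA box with the letters TATAAA. Also searched were the H1 box of linker histone promoters, AAACACA, and the octamer of H2B promoters, which reads ATTTGCAT. No match of one motif overlapped a match of another in these windows. The start is that of RefSeq, and the windows of H3f3b, H3f3a, H2afy and H2afy2 overlap GENCODE exons of the same gene and are not printed. Capitals mark CCAAT on either strand.
H2afv promoter, chr11:6444444-6444693, minus strand: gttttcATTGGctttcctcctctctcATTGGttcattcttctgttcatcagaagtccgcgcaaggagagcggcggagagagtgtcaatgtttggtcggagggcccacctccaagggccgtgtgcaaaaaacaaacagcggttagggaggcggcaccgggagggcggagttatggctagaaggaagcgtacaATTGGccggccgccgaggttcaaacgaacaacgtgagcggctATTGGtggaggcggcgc
Hist3h2ba promoter, chr11:58948661-58948910, plus strand: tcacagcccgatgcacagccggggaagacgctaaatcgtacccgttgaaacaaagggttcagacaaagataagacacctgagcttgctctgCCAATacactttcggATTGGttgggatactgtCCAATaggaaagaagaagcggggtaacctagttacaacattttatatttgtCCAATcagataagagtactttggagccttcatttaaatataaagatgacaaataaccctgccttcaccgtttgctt
H2afz promoter, chr3:137864237-137864486, plus strand: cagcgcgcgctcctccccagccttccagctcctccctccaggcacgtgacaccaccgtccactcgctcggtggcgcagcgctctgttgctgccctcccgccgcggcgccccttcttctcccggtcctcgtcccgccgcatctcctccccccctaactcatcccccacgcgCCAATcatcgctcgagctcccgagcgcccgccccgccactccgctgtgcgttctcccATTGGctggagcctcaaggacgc
Hist1h1c promoter, chr13:23738557-23738806, plus strand: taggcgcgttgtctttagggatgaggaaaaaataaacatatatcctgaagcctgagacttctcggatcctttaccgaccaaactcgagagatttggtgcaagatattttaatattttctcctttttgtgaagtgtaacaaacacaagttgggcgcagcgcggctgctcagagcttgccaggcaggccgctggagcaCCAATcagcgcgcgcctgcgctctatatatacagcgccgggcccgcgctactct
CCAAT was found in 6 of the 9 windows, against 33.8% of the 32851 windows in the table, and at least 2 copies in 4, against 10.1%. H3f3b, Hist3h2ba and H2afv held 4 copies each, H2afz 2, and H3f3a and Hist1h1c 1 each. The windows of H1f0, H2afy and H2afy2 held none of these letters. The H1f0 window ends at chr15:79028211, before the GENCODE start of H1f0 at 79028450, so the bases just before that start were not searched. TATAAA was found in H3f3b and Hist3h2ba (12.4% of all windows), and the octamer in H3f3b, 74 bases before the start (1.60% of all windows). The H1 box was found in Hist1h1c, 112 bases before the start, and in H3f3a (6.25% of all windows). H3f3b and H3f3a, which encode the same protein, thus differed in copies of CCAAT. A link between these motifs and the expression changes was not tested.

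Other histone loci were listed in small numbers. Of the other 9 linker histone symbols, 2 were listed. H1fx, the gene of the linker histone H1X, was at 2.72 FPKM in sedentary and 4.03 in running controls and at 2.70 in running cKO mice in the authors' deposited tables. It was called lower in the cKO in runners (log2 -0.58, q = 0.0172) and higher with running in the control (0.57, q = 0.0173) in the authors' deposited tables. The locus joining Hist1h1d with 3 core histone symbols was at 18.2 FPKM in control sedentary and 23.5 in cKO sedentary in the authors' deposited table (q = 0.0558, not called). Of the other variant symbols, H2afj was listed, with 14.3 and 10.7 FPKM in sedentary and running controls and 9.02 in sedentary cKO mice in the authors' deposited tables. H2afj was called lower in the sedentary cKO (log2 -0.66, q = 0.000167) and lower with running in the control (-0.41, q = 0.00105) in the authors' deposited table.

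Few replication-dependent core histone loci were listed, and the list was not tested. Hist3h2ba, an H2B gene with the stem loop that was lower in the cKO, is a member and was left out of this list. In sedentary mice 5 of 8 loci with values were called higher in the cKO, 2 lower and 1 was not called, and in runners 3 of 5 were called higher and 2 lower, against 44.3% and 44.5% of all genes called higher. Hist1h4k, an H4 gene, had 1.07 FPKM (sedentary) and 1.22 (running) in controls, against 2.45 and 2.19 in the cKO in the authors' deposited tables, with log2 1.19 and 0.84 for the cKO. Hist2h2be, an H2B gene, was lower in the cKO at log2 -0.44 in sedentary mice and -0.35 in runners (q = 0.0025 and 0.0179) in the authors' deposited table. The 5 loci that were higher in sedentary mice had at most 4.80 FPKM in any group, and polyadenylated libraries do not capture mRNAs that end at the stem loop. The 2 loci that were lower, Hist2h2be and a locus joining Hist3h2a with Trim17, had 5.87 and 18.7 FPKM in control sedentary. Without Hist3h2ba, the median log2 ratio over the loci with values was 0.85 in sedentary mice and 0.83 in runners, against -0.15 and -0.08 over all genes. Dividing cell markers, a list of 16 genes, had 2 loci called higher and 6 lower of 8 with values in the sedentary cKO. In runners 1 was higher and 3 were lower of 4 with values. Of all genes, 51.0% were called lower in sedentary mice and 50.0% in runners. Mcm5 and Mcm2, subunits of the replicative helicase, were lower in the sedentary cKO at log2 -1.18 and -0.52 in the authors' deposited table. Only these met the naming rule, the loci called higher are not named, and this list was not tested.

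Counts for genes that handle histones are read against the shares of all genes called lower in the cKO, 51.0% in sedentary mice and 50.0% in runners, and the lists themselves were not tested. For H2A.Z exchange (SRCAP and EP400 complex subunits and the H2A.Z chaperone Anp32e), 2 loci were higher and 8 lower of 10 in sedentary mice, and 1 higher and 3 lower of 4 with values in runners. Anp32e, whose protein removes H2A.Z from nucleosomes, was higher at log2 0.25 and 0.09, while Brd8 and Ep400 were lower at -0.38 and -0.21 in sedentary mice in the authors' deposited tables. For H3.3 deposition, 1 locus was higher and 7 lower of 8 in sedentary mice, and none higher and 5 lower of 6 with values in runners. Atrx, the remodeler that deposits H3.3 in heterochromatin with DAXX, fell by 0.56 and 0.47 log2, while Asf1a, an H3-H4 chaperone, fell by 0.31 and 0.51 and the H3.3 chaperone gene Dek fell by 0.26 and 0.35, in the authors' deposited tables. The median log2 ratio of the H3.3 deposition list was -0.28 in sedentary mice and -0.35 in runners.

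Among other histone chaperones 2 loci were higher and 10 lower of 15 with values in each genotype comparison, with 3 not called. Nasp, a chaperone of H3-H4 and linker histones, had 12.4, 12.2, 7.66 and 8.70 FPKM in sedentary controls, running controls, sedentary cKO and running cKO mice in the authors' deposited tables, with log2 -0.69 and -0.48 for the cKO. Npm1 and Rbbp4, both histone-binding proteins, were lower in the sedentary cKO at log2 -0.54 and -0.50 in the authors' deposited table. In runners their decreases were smaller, at log2 -0.16 and -0.17 in the authors' deposited table. For histone mRNA processing, 2 loci were higher and 8 lower of 10 in sedentary mice, and none higher and 6 lower of 7 with values in runners. Casp8ap2, which encodes the processing factor FLASH, was lower at log2 -0.75 and -0.65, and Npat, the activator of replication-dependent histone genes, at -0.32 and -0.25, in the authors' deposited tables. With running, 9 of 14 chaperone loci with values were called higher and 1 lower in the cKO, and 5 higher and 4 lower in the control. Of the H2A.Z exchange loci, 3 were higher and 1 lower of 4 with running in the cKO, and 4 of 4 were higher in the control. Of all genes 26.2% were called higher with running in the cKO and 29.5% in the control.

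**Figure D5:**
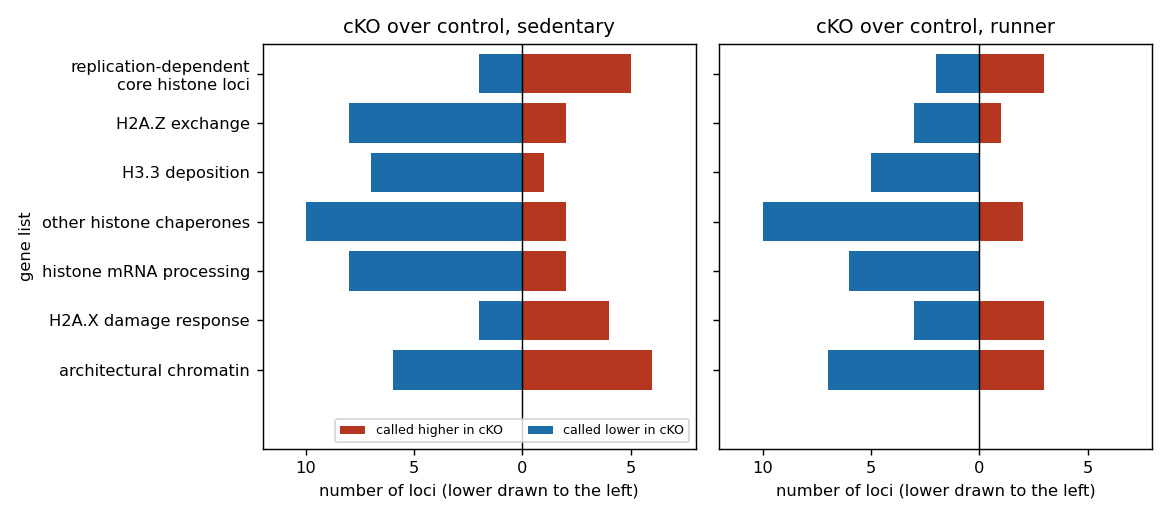
Number of loci called higher (right) and lower (left) in the cKO for 7 gene lists, in sedentary mice and in runners; loci not called or without a value are not drawn. Chaperone loci number 10 lower and 2 higher in both panels, and replication-dependent core histone loci 2 lower and 5 higher in sedentary mice and 2 lower and 3 higher in runners.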

How the data were processed

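The authors deposited 4 Cuffdiff tables, each comparing a pair of groups, with 1 FPKM per group in which the libraries of a group were combined, per the file headers. The log2 fold change, the test statistic (used as a score), the p-value and the q-value are the authors' own, per the file headers. Per the submitters' processing notes, the build is mm10 and the tools include Cuffdiff, Cufflinks 2.1.1 and TopHat2 2.0.8b, with no roles given. All 13151 group values that occur in more than 1 table were identical. Fold changes were oriented with the cKO or the runners as numerator.

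The members and lists were chosen with earlier results of these data known. Standard errors are the fold change over the deposited statistic. Among values above the smallest deposited p, that statistic was smaller than the normal quantile of its p (median ratio 0.72), so errors there are wide. Values at the smallest p were left out of that ratio, and they include most genotype values of the members. Of these, the H2afy2 statistics of -2.85 in sedentary mice and -3.04 in runners were smaller in size than the normal quantile of that p, so its errors are wide. Whether the errors of the other genotype values there are wide is unknown. The genotype by running difference was a two-sided z test with Benjamini-Hochberg adjustment over genes listed in both genotype tables. A simulation drew its noise from these same standard errors, so it checked the calculation alone. It could not check whether the errors are right. Only genes called or nearly called in both tables could be tested. Background shares use genes with a value in both groups; these are genes listed in some table, not all genes tested. Lists count loci, and a symbol can name more than 1 locus. Up to 3 genes per list were named, by size of change among loci with 1 symbol called in both genotype comparisons at an FPKM of at least 1; loci of the other histone lists outside that rule were named after their values were seen, as were values of single members set against each other. Length is the longest GENCODE M21 transcript of any type, known for 10700 of 11763 loci, in 20 bins. Where a locus joins several genes it is the longest among them, 2370 bases for the H1f0 locus against 2055 for H1f0. Near-identical copies were found with BLAST+ 2.17.0. With 1 value per group, no depth, counting interval or spread between libraries could be given; the authors' p-values rest on 2 libraries per group, whose titles differ by a lane letter alone, so they and the standard errors may reflect technical spread.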

Additional observations from a re-analysis of the deposited data

Results flagged for a closer look

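The genotype effect on H2afz differed between runners and sedentary mice by 0.53 log2 (adjusted p = 4.18e-06, two-sided z test on the authors' deposited values over all genes listed in both genotype tables). Its level fell with running in the control and rose in the cKO. The genotype effect on H3f3a differed by 0.16 log2 (adjusted p = 0.0267 in the same z test on the authors' values). Of all genes tested 28.0% passed, and neither value passed after length-centring. The part of cell composition in these values was not tested.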

How the results depend on the processing

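At q below 0.01 the member called higher with running in the cKO was lost (0 members), and other counts of members stayed within 1.5 times. With a minimum change of 1.5-fold, 0 members were called higher in the cKO in either genotype comparison, 2 were lower in runners, 0 were higher with running in the cKO and 0 were lower with running in the control. Among called values, length-centring turned the direction of the control running effect of the H1f0 locus (0.015) and H2afz (0.019). Values not called turned too for running in the cKO, to -0.079 for the H1f0 locus and -0.022 for H2afy2. In the genotype by running difference, length-centring turned the H1f0 locus (-0.27) and H3f3b (-0.35), which passed only then. It also turned H2afy2 (-0.38), which did not pass. It ended the call for H2afz and H3f3a in that difference; the number of members called stayed at 2, but with the H1f0 locus and H3f3b in their place. The centred difference and the counts without the H1f0 locus were chosen after seeing the data. The cause was not tested. A pseudocount of 1 moved none of 31 member values by more than its SE, or more than 0.1 log2 for genes not listed. Centring on the all-gene median turned no called direction among the members, but moved 10 of the 31 values by more than that. Length-centring moved 21 of the 31 by more than that, beside the 2 called values it turned. The difference of the running comparisons gave 0.53 for H2afz again, the same quantity from the same group values. Leaving out a library could not be done, since the tables hold 1 value per group. No paired analysis was possible because the deposited columns carry no libraries.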

Other observations

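Genes of architectural chromatin proteins were evenly split in the sedentary cKO, with 6 higher and 6 lower of 12, and numbered 3 higher and 7 lower of 10 with values in runners. Hmgb3, an HMG-box protein gene, was higher at log2 0.77 in sedentary mice and 0.62 in runners in the authors' deposited tables. Hmgn3, which encodes a nucleosome-binding protein, and Cbx1, which encodes heterochromatin protein HP1 beta, were lower at -0.74 and -0.71 in sedentary mice in the authors' deposited table. Genes that act with H2A.X in the DNA damage response numbered 4 higher and 2 lower of 6 with values in sedentary mice, and 3 higher and 3 lower in runners. Of all genes, 44.3% were called higher and 51.0% lower in the sedentary cKO, and 44.5% and 50.0% in the running cKO. Neither list was tested. The damage response genes named next had the largest changes under the naming rule and were all higher, and the lower loci are not named. Eya1, whose protein removes a phosphate from H2A.X, had 2.09 and 1.77 FPKM in sedentary and running controls and 3.80 and 3.48 in sedentary and running cKO mice in the authors' deposited tables. The checkpoint kinase gene Chek2 was higher in the cKO at log2 1.67 and 1.05, from 0.356 FPKM in control sedentary, in the authors' deposited tables. Brca1, a DNA repair gene, was higher at log2 0.67 and 1.62, from 0.898 FPKM in control sedentary, in the authors' deposited tables.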
